A study of Homo sapiens with 2 samples.

Results

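Accessible chromatin was followed at 9 autophagy genes in the tongue squamous carcinoma line CAL27: ULK1, BECN1, ATG5, ATG7, ATG16L1, MAP1LC3B, GABARAPL1, SQSTM1 and TFEB. A region belongs to one of them when it touches the gene or the 50 kb beyond either end (hg38, RefSeq gene models). There were 127 such regions, of 130506 in all after overlapping peaks of both libraries were merged. The assay was ATAC-seq, in which the transposase Tn5 cuts open DNA in nuclei. It covered 1 library of untreated CAL27 cells and 1 library of CAL27 cells kept in 10 mM lactate for 24 h, and the labels give no other difference. The comparison asks where chromatin differed after added lactate. Each group being a single library, no difference could be checked on replicates, and what is compared is a pair of libraries rather than the conditions themselves. The 95% intervals in parentheses reflect counting error alone.

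Autophagy encloses cytoplasm in a double membrane and delivers it to the lysosome. The ULK1 kinase starts the process, the Beclin 1 complex makes the lipid that marks the growing membrane, and a ubiquitin-like system with ATG7, ATG5 and ATG16L1 attaches ATG8 proteins such as LC3B and GABARAPL1 to it. SQSTM1 brings in ubiquitinated cargo, and TFEB switches on autophagy and lysosome genes through CLEAR elements, which are built around an E-box.

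The level of a region is its summit pileup, the number of extended tags over its highest point, per 1000000 total tags of its library, called normalised tags here (18248413 untreated and 15401276 lactate tags). The ratio is the lactate level over the untreated level. Shared regions of the whole genome had a median ratio of 1.65, so values at the autophagy genes are set beside that background. A relative ratio divides a ratio by the median over shared regions of like summit tags (20 bins), so 1 means the background of equally tall regions. The cell label was checked at gene ends. Of 8 squamous markers 7 had a region in both libraries (TP63 in neither), as had 0 of 5 endothelial, 3 of 6 fibroblast (DCN and LUM in neither, PDGFRA untreated-only), 4 of 6 leukocyte (PTPRC among those in neither) and 3 of 4 neuronal markers (SNAP25 untreated-only). Regions within the gene body were found at markers of several types without one at an end, 24 at TP63, 16 at VWF, 12 at TEK, 7 at PTPRC and 6 at PECAM1. Summed levels, untreated and lactate, were 21.4 and 43.6 normalised tags for squamous, 8.22 and 13.7 for fibroblast, 8.49 and 17.8 for leukocyte and 6.14 and 7.40 for neuronal markers. Per gene these are 2.67 and 5.45, 1.37 and 2.28, 1.42 and 2.97, and 1.53 and 1.85. The neighbours PDGFRB and CSF1R share 1 region, which counts in both the fibroblast and the leukocyte sum. The part of other cells in the values at autophagy genes was not tested.

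The RefSeq promoter table lists 14 transcription starts for the 9 genes, all of which matched by symbol. Regions covered 11 of the starts. Of these 9 were covered in both libraries (50% of all 22132 listed starts of protein-coding genes), 2 were lactate-only (3.57%) and 0 untreated-only (0.38%), and 3 were not covered (46.1%). The 250 bases before 6 listed starts are printed, chosen for their start results. ULK1 and the third start of SQSTM1 were covered in the lactate library alone, and of the genes' tallest start regions those of ATG5 and TFEB had the highest ratios, that of ATG7 the lowest ratio and that of GABARAPL1 the most tags. The sequences are from RefSeq (GRCh38.p14), 5′ to 3′ in the direction of transcription. The printed windows of ATG5, TFEB and the third SQSTM1 start lie inside the gene spans given below, as does the window searched for BECN1. Upstream and downstream are counted from the listed starts, not from the ends of these spans. Capitals mark matches, on either strand, to the searched motifs, here GGGCGG (Sp1), CCGGAAG (ETS) and TGACGTCA (CREB).
ULK1 (chr12:131894372-131894621, plus strand): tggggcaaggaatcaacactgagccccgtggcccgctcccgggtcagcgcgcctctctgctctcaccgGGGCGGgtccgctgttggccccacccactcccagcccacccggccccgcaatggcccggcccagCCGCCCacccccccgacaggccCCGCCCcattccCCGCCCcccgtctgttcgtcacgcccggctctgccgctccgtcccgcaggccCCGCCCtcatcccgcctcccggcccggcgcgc
SQSTM1, the third start (chr5:179820655-179820904, plus strand): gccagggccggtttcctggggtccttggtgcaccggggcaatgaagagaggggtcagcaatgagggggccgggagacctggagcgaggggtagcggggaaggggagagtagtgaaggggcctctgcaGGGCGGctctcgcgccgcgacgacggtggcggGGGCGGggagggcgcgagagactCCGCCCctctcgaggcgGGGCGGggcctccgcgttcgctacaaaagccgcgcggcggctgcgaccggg
ATG5, the first start (chr6:106325438-106325687, minus strand): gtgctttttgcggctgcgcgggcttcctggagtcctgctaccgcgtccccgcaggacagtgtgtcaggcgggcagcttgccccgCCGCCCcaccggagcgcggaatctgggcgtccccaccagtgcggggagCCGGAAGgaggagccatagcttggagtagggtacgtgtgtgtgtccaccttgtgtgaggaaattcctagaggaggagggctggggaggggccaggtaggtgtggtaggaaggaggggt
TFEB, the first start (chr6:41735609-41735858, minus strand): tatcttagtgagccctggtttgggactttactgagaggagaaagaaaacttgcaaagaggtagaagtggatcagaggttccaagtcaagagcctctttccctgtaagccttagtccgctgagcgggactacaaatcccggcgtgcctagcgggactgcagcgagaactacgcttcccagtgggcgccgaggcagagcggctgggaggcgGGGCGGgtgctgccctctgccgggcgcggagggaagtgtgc
GABARAPL1 (chr12:10212627-10212876, plus strand): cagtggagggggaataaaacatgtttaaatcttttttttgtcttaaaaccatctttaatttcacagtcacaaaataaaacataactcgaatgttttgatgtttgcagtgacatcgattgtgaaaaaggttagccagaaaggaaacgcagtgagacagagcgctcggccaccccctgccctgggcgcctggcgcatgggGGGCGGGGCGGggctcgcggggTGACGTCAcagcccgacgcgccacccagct
ATG7 (chr3:11272147-11272396, plus strand): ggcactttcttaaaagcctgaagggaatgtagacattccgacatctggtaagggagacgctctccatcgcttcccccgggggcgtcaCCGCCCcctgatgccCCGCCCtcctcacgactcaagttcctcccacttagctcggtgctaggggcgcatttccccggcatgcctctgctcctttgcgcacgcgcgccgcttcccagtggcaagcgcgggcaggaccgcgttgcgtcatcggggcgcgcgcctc

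Sp1 letters were common in these windows. GGGCGG lay before 12 of the 14 starts, and before 53.7% of all listed starts. The ULK1 window held 5 such matches at a GC content of 78.0%, above 92.6% of all listed starts, and the window of the third SQSTM1 start held 4 at 73.6%. CCGGAAG lay before 3 starts, those of ATG16L1 and BECN1 and the first of ATG5 (10.7% of all). CCAAT (NF-Y) lay before BECN1 and the second start of ATG5 (32.7% of all). TGACGTCA lay before GABARAPL1 alone, beginning 30 bases upstream (2.02% of all), and TGACNNNGC, the antioxidant response element core, before MAP1LC3B alone (11.2%). CACGTG, the E-box core of the CLEAR element, lay before 0 of the 14 starts (7.37% of all), as did the palindromic CLEAR element that contains it (0.438%), TGACTCA (AP-1, 3.45%) and TGTTTAC (FOXO, 2.45%). These counts describe letters in this window only.

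At the starts, 8 of the 9 genes had a region within 1 kb in both libraries (63.4% of 15812 protein-coding genes with a listed start), and that of ULK1 was lactate-only (5.2%). No gene was untreated-only (0.658%) or without a region in either list (30.8%). All 8 ratios were above 1, as were 97% of those of all genes, and 4 were 2 or more (39.3% of all genes), with none at 0.5 or less (0.0599%). The median of the 8 was 2.15, beside 1.85 over 10019 genes. Against gene starts of like summit tags none of the 8 stood 1.5 or more (8.49% of genes) or 1/1.5 or less (7.89%), the highest being ATG5 at 1.47 and the lowest SQSTM1 at 0.709. Divided by the median ratio of all shared regions, 1.65, which is below the 1.85 of gene starts, the median of the 8 is 1.30.

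**Figure D1:**
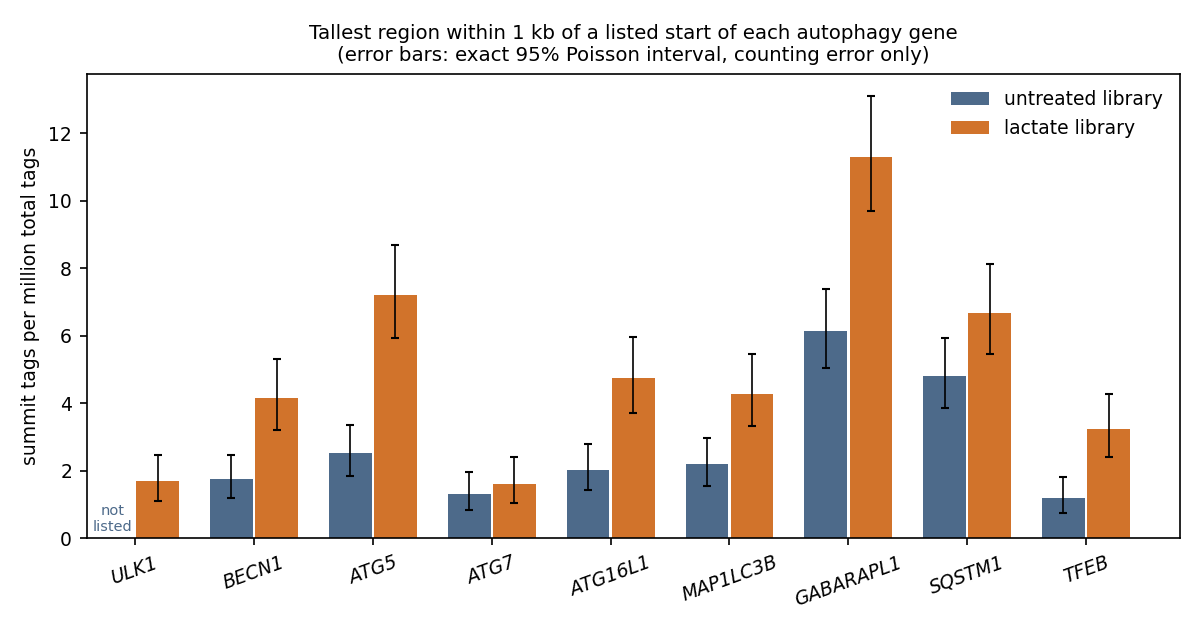
Normalised summit tags (per 1000000 total tags, vertical axis, linear from 0) of the tallest region within 1 kb of a listed start of each gene, untreated in blue and lactate in orange, with exact 95% Poisson intervals as error bars. The lactate bar is the taller one at all 8 genes with both bars, GABARAPL1 is tallest in both libraries, and ULK1 has no untreated bar because no untreated region was listed there.

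ULK1 encodes the kinase that starts autophagy (chr12:131894622-131923150, plus strand). A lactate region of 200 bp covered its start (chr12:131894558-131894757), with 26 tags, 1.69 normalised tags, at a summit 47 bp downstream and a fold over local background of 2.95, as the authors' peak list gives it. No untreated region lay within 1 kb, and the nearest was 1117 bp away with a background of 6.70 tags. Among 3916 untreated regions with a like background the lowest summit had 15 tags, so fewer tags than about that would not have been listed. With 16 untreated tags, the number computed as needed, the ratio would be 1.93, and the true ratio at the start was not measurable.

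The main open region of the first part of ULK1 was in both libraries (chr12:131895874-131897001). Its 3 untreated summits held 55, 36 and 31 tags, and its 3 lactate summits 111, 60 and 50. The tallest lay 1594 bp downstream of the start in both and had a ratio of 2.39 (1.72 to 3.37). The other summits had ratios of 1.97 (1.29 to 3.07) and 1.91 (1.20 to 3.09). All 3 belong to 1 region and are not separate observations. The relative ratio of the region was 1.23 (0.884 to 1.74), an interval that includes the background. With a start window of 2 kb this region would be the start region of ULK1.

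The tallest regions of the ULK1 window lay upstream of the gene. The one 29.2 kb upstream (chr12:131865163-131865733) had 62 untreated and 158 lactate tags, a ratio of 3.02 (2.24 to 4.12) and a relative ratio of 1.56 (1.15 to 2.12). Its neighbour 33.6 kb upstream had 65 and 72 tags, a ratio of 1.31 (0.925 to 1.86) and a relative ratio of 0.694 (0.489 to 0.986). The tallest untreated summit was 22.2 kb upstream, with 70 and 144 tags and a ratio of 2.44 (1.82 to 3.29). The lowest ratio of the window, 0.889 (0.331 to 2.30), came from 12 and 9 tags within EP400, a chromatin remodeller gene. Of 17 regions 11 were in both libraries, 3 lactate-only and 3 untreated-only, and the median ratio was 1.81.

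BECN1 encodes Beclin 1, a scaffold of the class III PI3-kinase complex (chr17:42810132-42824282, minus strand). Its start region (chr17:42823699-42824579) had 32 untreated and 64 lactate tags, 1.75 and 4.16 normalised tags, and a ratio of 2.37 (1.53 to 3.74). The relative ratio was 1.30 (0.838 to 2.05), an interval that includes the background. Each library had a pair of summits in this region. The one nearer the listed start (chr17:42823879) lay 130 bp upstream in the untreated library. It had 19 and 23 tags and a ratio of 1.43 (0.747 to 2.79). The one 450 bp upstream carried the 32 and 64 tags. The gene span reaches beyond the listed start to 42824282, and the second of these summits lies nearer that end. The difference between these summits was not tested. The tallest region of the window, a narrow one, lay at the start of PSME3, a proteasome activator gene. It had 126 and 187 tags and a ratio of 1.76 (1.40 to 2.22). The highest ratio, 2.50 (1.08 to 6.28), rested on 9 and 19 tags. The lowest, 1.29 (0.522 to 3.23), lay at the start of VPS25, an ESCRT gene, with 11 and 12 tags. Of 8 regions 7 were in both libraries and 1 was lactate-only, and the median ratio was 1.90.

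ATG5 encodes the protein to which ATG12 is conjugated (chr6:106184476-106325760, minus strand). Its first start had the highest ratio of the 8 genes with a start ratio. The region there (chr6:106325163-106326024) had 46 untreated and 111 lactate tags, 2.52 and 7.21 normalised tags. The ratio was 2.86 (2.01 to 4.12), above 93.2% of the 10019 genes with a start region in both libraries. The relative ratio, against all shared regions of like tags, was 1.51 (1.06 to 2.18). Against gene starts of like tags it was 1.47 (1.03 to 2.12). The untreated library had summits of 45 and 46 tags 100 and 213 bp upstream, while the lactate library had a single summit 265 bp upstream. No region lay within 1 kb of the second start.

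The lowest ratio of all 9 windows also lay within ATG5 (chr6:106311206-106312176). It had 15 untreated and 8 lactate tags and a ratio of 0.632 (0.232 to 1.59), an interval that includes 1. Upstream of ATG5, within the neighbouring gene CRYBG1, a region of 32 and 20 tags had a ratio of 0.741 (0.401 to 1.34) and a relative ratio of 0.446 (0.242 to 0.805), below equally tall regions. The start of CRYBG1 itself had 33 and 72 tags and a ratio of 2.59 (1.69 to 4.03). Its relative ratio was 1.42 (0.927 to 2.21). By ratio, regions on that side of ATG5 lay on both sides of 1. Of 22 regions 14 were in both libraries, 5 lactate-only and 3 untreated-only, and the median ratio was 1.75.

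ATG7 encodes the E1-like enzyme that activates ATG12 and the ATG8 proteins (chr3:11272397-11576353, plus strand). Its start region (chr3:11271974-11272721) was nearly level, with 24 untreated and 25 lactate tags, 1.32 and 1.62 normalised tags. The ratio of 1.23 (0.676 to 2.26) was the lowest of the 8 genes with a start ratio. It stood above 9.42% of the 10019 genes with a start region in both libraries. Its interval includes both 1 and the median of all genes. The relative ratio was 0.744 (0.408 to 1.36). Divided by the median ratio of all shared regions the ratio is 0.749, below 1, and by their summed pileup 0.705. The tallest region, a narrow one, lay 91.8 kb downstream within the gene, with 124 and 190 tags and a ratio of 1.82 (1.44 to 2.30). The lowest ratio of the window, 1.07 (0.610 to 1.86), came from 30 and 27 tags, also within the gene.

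Beyond the far end of ATG7, within VGLL4, which encodes a cofactor of TEAD transcription factors, lay the highest ratio of all 90 shared regions (chr3:11600422-11601149). It had 23 untreated and 80 lactate tags, a ratio of 4.12 (2.56 to 6.87) and a relative ratio of 2.26 (1.41 to 3.77). The start of VGLL4 near the end of ATG7 had 35 and 56 tags and a ratio of 1.90 (1.22 to 2.98). Of 22 regions 15 were in both libraries, 5 lactate-only and 2 untreated-only, and the median ratio was 1.64.

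ATG16L1 encodes the protein that brings the ATG12-ATG5 conjugate to membranes (chr2:233251673-233295669, plus strand). Its start region (chr2:233251407-233251805) had 37 untreated and 73 lactate tags, 2.03 and 4.74 normalised tags, and a ratio of 2.34 (1.55 to 3.57). The relative ratio was 1.26 (0.836 to 1.92), an interval that includes the background. The summits lay 58 bp upstream in the untreated and 77 bp in the lactate library. The tallest of all 127 regions lay 9.28 kb downstream within the gene (chr2:233260842-233261063). This narrow region was 222 bp wide, with 260 and 528 tags. Its ratio was 2.41 (2.07 to 2.80) and its relative ratio 1.26 (1.09 to 1.47). The lowest ratio, 1.28 (0.708 to 2.34), came from 24 and 26 tags 6.61 kb upstream. Of 9 regions 7 were in both libraries and 2 lactate-only, and the median ratio was 1.56.

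MAP1LC3B encodes LC3B, the ATG8 protein most used to mark autophagosomes (chr16:87392336-87404774, plus strand). Its start region (chr16:87391924-87392417) is also within 1 kb of a listed start of the F-box gene FBXO31. It had 40 untreated and 66 lactate tags, 2.19 and 4.29 normalised tags, and a ratio of 1.96 (1.30 to 2.97). The relative ratio was 1.07 (0.713 to 1.63). The untreated library had 1 summit in this region, 292 bp upstream. The lactate library had 63 tags 245 bp upstream and 66 tags 56 bp upstream, a summit nearer the start. The tallest region of the window, 3.83 kb upstream within FBXO31, had 107 and 197 tags and the highest ratio there, 2.18 (1.72 to 2.79). Another FBXO31 start had 78 and 91 tags, a ratio of 1.38 (1.01 to 1.90) and a relative ratio of 0.712 (0.521 to 0.977), below equally tall regions. The lowest ratio, 1.10 (0.476 to 2.52), came from 14 and 13 tags within ZCCHC14. Of 11 regions 9 were in both libraries and 2 lactate-only, and the median ratio was 1.84.

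GABARAPL1 encodes an ATG8 protein of the GABARAP branch (chr12:10212877-10223128, plus strand) and had the tallest start region of the 9 genes (chr12:10211598-10213170). Over 1573 bp it reached 112 untreated and 174 lactate tags, 6.14 and 11.3 normalised tags. These levels stood above 98.2% of the genes with an untreated start region and 97.6% of those with a lactate one. The ratio was 1.84 (1.44 to 2.36) at the main summit, 422 bp upstream in the untreated library. The relative ratio was 0.966 (0.757 to 1.24). The summit beside the start, 63 bp upstream in the untreated and 38 bp in the lactate library, had 55 and 52 tags and a ratio of 1.12 (0.752 to 1.67). The difference between these summits was not tested. The untreated library listed further summits of 28 tags 1154 bp upstream and 26 tags 246 bp downstream, which had no lactate summit within 100 bp. With the mean over a region's summits the start ratio is 2.42, outside the interval of 1.44 to 2.36.

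The clearest case of a relative ratio below 1 lay 54.3 kb downstream of the GABARAPL1 start, within the natural killer receptor gene KLRD1. The region there was narrow. It had 91 and 60 tags, a ratio of 0.781 (0.554 to 1.09) and a relative ratio of 0.413 (0.293 to 0.578), the lowest of all 90. The highest ratio of the window, 2.13 (0.933 to 5.17), rested on 10 and 18 tags. Of 10 regions 7 were in both libraries, 2 lactate-only and 1 untreated-only, and the median ratio was 1.82.

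SQSTM1 encodes the cargo receptor p62 (chr5:179806393-179838078, plus strand), and its 3 listed starts differed. No region covered the first. The second lay under a region (chr5:179806787-179807125) of 15 untreated and 36 lactate tags, with a ratio of 2.84 (1.52 to 5.59), the highest of the window. Its relative ratio was 1.71 (0.915 to 3.37), an interval that includes the background. A further region just downstream had 17 and 26 tags and a ratio of 1.81 (0.947 to 3.56), and a listed start of the glycosyltransferase gene MGAT4B lies within 1 kb of both. At the third start the lactate summits reached past the start and the untreated ones did not. The last untreated summit lay 1320 bp upstream with 58 tags, and no other followed within 3 kb. Lactate summits lay 1299 bp upstream with 85 tags, 1094 bp upstream with 103, and 137 and 913 bp downstream with 59 each.

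The outermost summit before the third SQSTM1 start did not share that pattern. It had 88 tags in both libraries and a ratio of 1.18 (0.872 to 1.61), while the summit next to it had a ratio of 1.74 (1.23 to 2.47). Taken as 1 region (chr5:179818733-179820053), the tallest summits of 88 and 103 tags, 4.82 and 6.69 normalised tags, gave a ratio of 1.39 (1.03 to 1.86) and a relative ratio of 0.715 (0.533 to 0.961). This is the start value of SQSTM1 that the plot of start levels shows. The tallest summits of the libraries lie 694 bp apart, so this ratio compares different sites of the region. Divided by the median ratio of all shared regions it is 0.841, below 1, and by their summed pileup 0.793. With a start window of 500 bp the SQSTM1 ratio is 4.11, because the tallest regions of the libraries then lie at different starts.

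The pair of lactate-only regions at the third SQSTM1 start (chr5:179820845-179821281 and chr5:179821543-179821938) were the tallest lactate-only regions of the 9 windows, and the only 2 with 50 tags or more, which 0.849% of all lactate-only regions have. Their folds over local background in the authors' list were 3.13 and 3.09. The nearest untreated region had a background of 13.4 tags, and among 840 untreated regions with a like background the lowest summit had 25 tags. With 25 untreated tags the ratio would be 2.80. Of 14 regions 8 were in both libraries and 6 lactate-only, 42.9% (17.7 to 71.1), an interval that includes the 26% of all regions. The median ratio was 1.73. The tallest lactate summit, 67 and 132 tags at the start of MRNIP, had a ratio of 2.33 (1.73 to 3.18), and the lowest ratio, 0.965 (0.524 to 1.76), lay within MRNIP with 27 and 22 tags.

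TFEB encodes the transcription factor of the lysosome and autophagy programme (chr6:41683978-41736223, minus strand). Its first start lay under a region (chr6:41735436-41735866) of 22 untreated and 50 lactate tags, 1.21 and 3.25 normalised tags, with a ratio of 2.69 (1.60 to 4.67). The relative ratio was 1.53 (0.912 to 2.66), an interval that includes the background. Against gene starts of like tags it was 1.45 (0.860 to 2.51). The untreated level stood above 25.2% of the genes with an untreated start region, and the lactate level above 49.4% of those with a lactate one. The summits lay 86 bp upstream in the untreated and 62 bp in the lactate library, on the window printed above. No region covered the second start, and the region at the third had 18 and 31 tags and a ratio of 2.04 (1.11 to 3.87). Its relative ratio was 1.23 (0.667 to 2.34).

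Within TFEB, a region 10.7 kb downstream of the nearest start (chr6:41723348-41723829) had 16 untreated and 46 lactate tags. Its ratio was 3.41 (1.89 to 6.45) and its relative ratio 2.00 (1.11 to 3.78). The start of MDFI, an inhibitor of myogenic transcription factors, had 25 and 72 tags, the highest ratio of the window at 3.41 (2.14 to 5.62), and a relative ratio of 1.87 (1.17 to 3.08). These were the 2 of the 12 shared regions of the window whose relative interval lay above 1, against 5.04% of all shared regions. Only the first of them lies in TFEB. The tallest region, also within TFEB, had 61 and 103 tags and a ratio of 2.00 (1.44 to 2.79). The lowest ratio, 1.18 (0.555 to 2.53), came from 16 and 16 tags within the pepsinogen gene PGC. Of 14 regions 12 were in both libraries, all with a ratio above 1, and 2 were lactate-only, with a median ratio of 1.88.

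**Figure D2:**
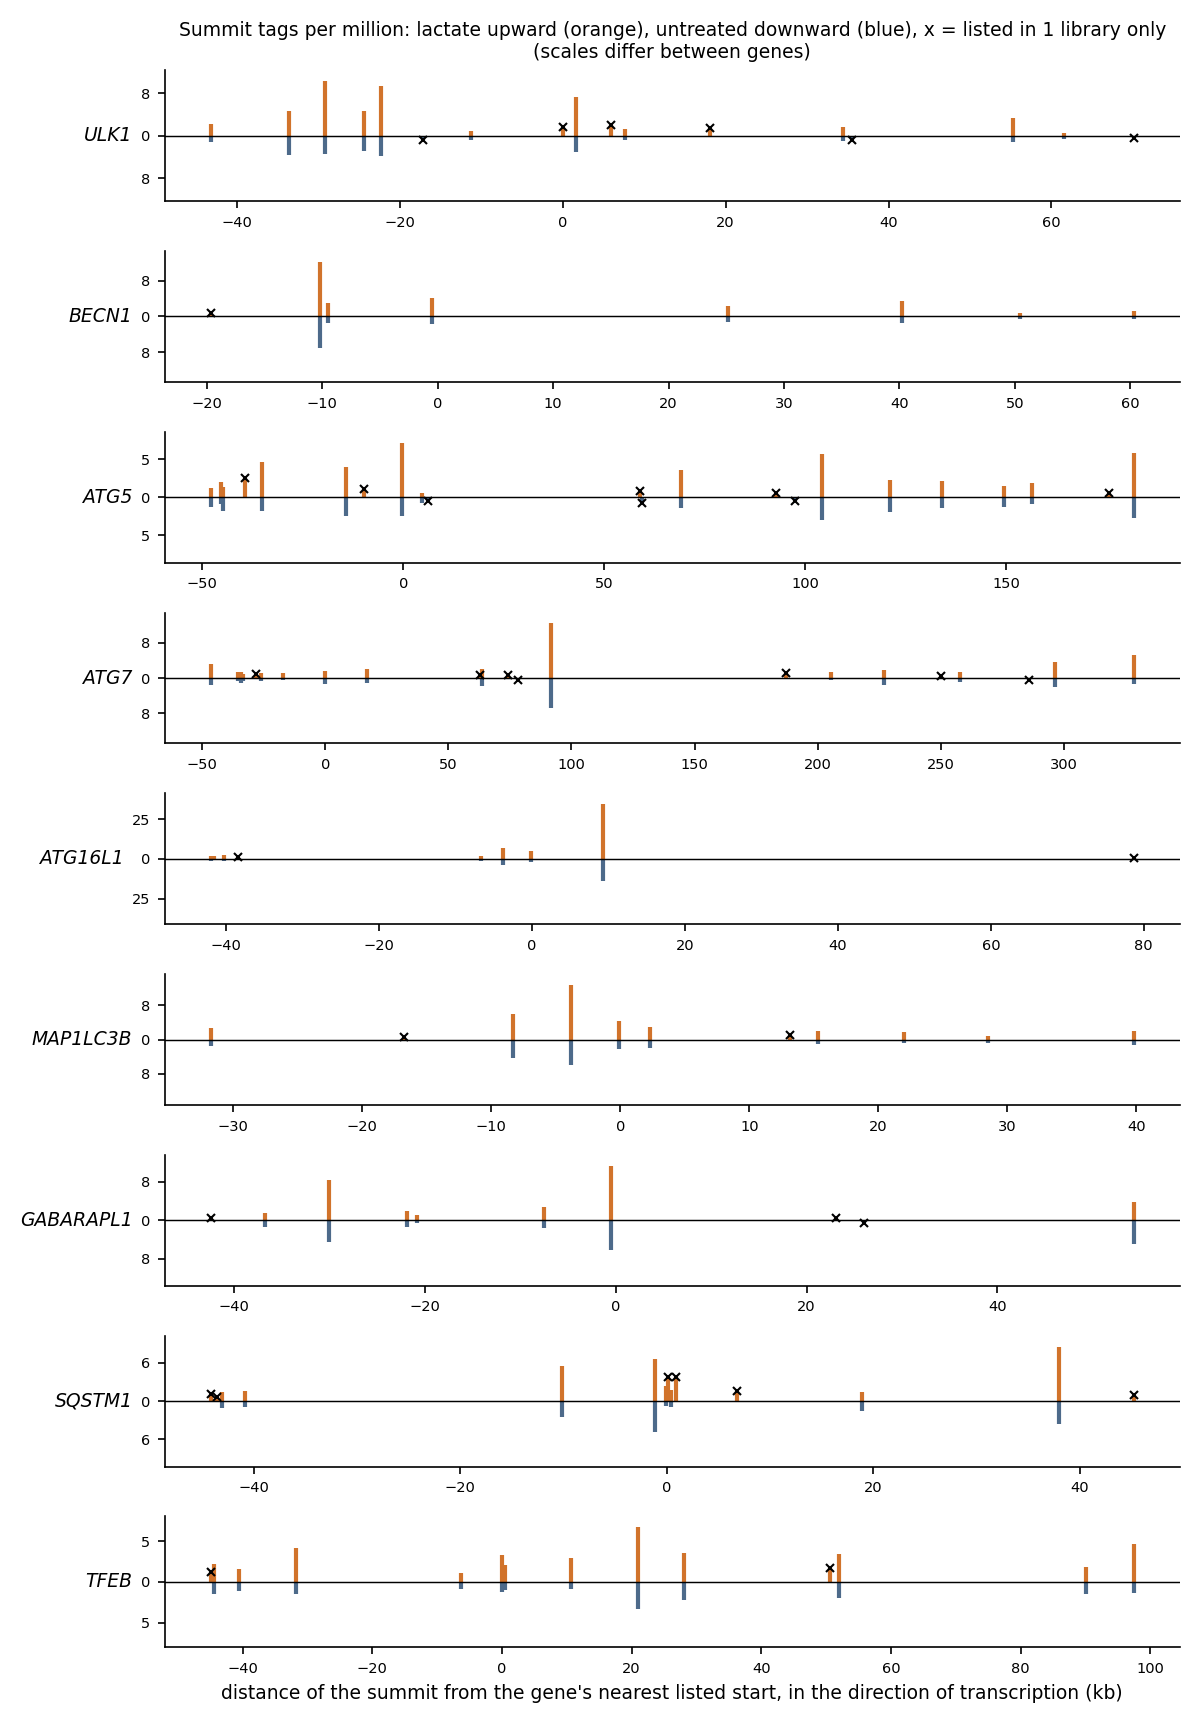
Each panel shows the regions of 1 gene by the distance of the summit from the nearest listed start in the direction of transcription (horizontal, kb), with normalised lactate summit tags upward in orange and untreated ones downward in blue, on linear scales that differ between genes. Crosses mark regions listed in 1 library, the pair beside the SQSTM1 start reaches 3.83 normalised tags, and the region within ATG16L1 is the tallest of all.

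Over the 9 windows, 90 of 127 regions were in both libraries, 70.9% (exact binomial interval 62.1 to 78.6) against 66.5% of all regions. Another 28 were lactate-only, 22.0% (15.2 to 30.3) against 26%, and 9 untreated-only, 7.09% (3.29 to 13.0) against 7.48%. These shares stood near the background. The shared regions had a median ratio of 1.81 beside 1.65 for all 86803, with 84 of 90 above 1 (88.7% of all) and 6 below 1 (11.3%). A ratio of 2 or more was found at 31, 34.4% against 29.3%, and one of 0.5 or less at 0 (0.297%). With levels divided by the median ratio of all shared regions 3 of the 90 would reach 2, against 2.29% of all. The interval of the ratio lay above 1 at 49 (44.4% of all) and below 1 at 0 (0.256%).

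Set against equally tall regions the 90 were centred on the background, with a median relative ratio of 1.005. It was 1.5 or more at 13, 14.4% against 11.9%, and 1/1.5 or less at 6, 6.67% against 12.6%. Its interval lay above 1 at 6 regions (5.04% of all), namely the ATG5 start, the region within ATG16L1, the upstream one of ULK1, the one in VGLL4 and the pair in the TFEB window. It lay below 1 at 5 (6.91%), in the windows of ULK1, ATG5, MAP1LC3B, GABARAPL1 and SQSTM1. Summed over the 90, 3345 untreated and 5291 lactate summit tags gave a ratio of 1.87 (1.79 to 1.96). By gene the summed ratio ran from 1.52 (1.32 to 1.74) at GABARAPL1 to 2.12 (1.89 to 2.38) at ATG16L1, where a single narrow region holds most of the tags.

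**Figure D3:**
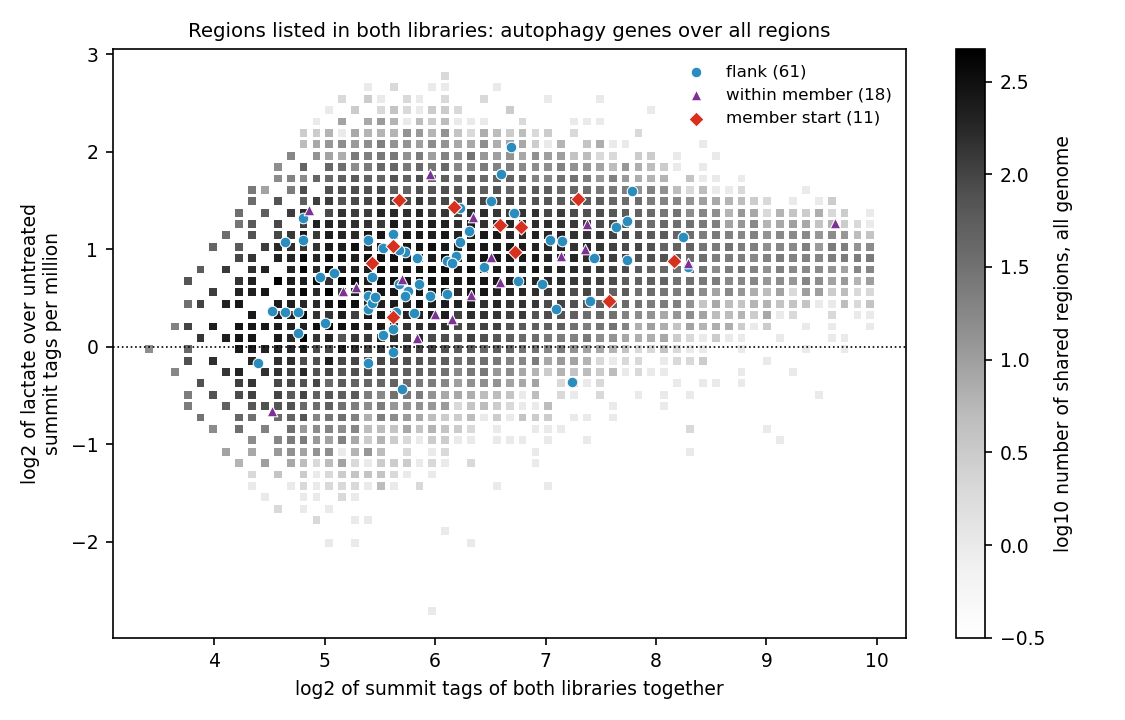
The log2 ratio of lactate to untreated normalised summit tags (vertical) against the log2 of the summit tags of both libraries together (horizontal), with the shared regions of the genome as grey squares shaded by their log10 number and the 90 regions of the autophagy genes as coloured points by place. The coloured points lie within the grey cloud, with 84 of 90 above the dotted line of equal levels.

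By place, the 11 shared regions at the genes' starts had a median ratio of 2.04, the 18 elsewhere in the genes 1.72 and the 61 in the flanks 1.69. Over all regions the medians were 1.81 at starts of protein-coding genes, 1.63 within genes and 1.66 within 50 kb of them. Between libraries the tallest summit of a region shifted by a median of 20.5 bp (17 bp over all shared regions), by 50 bp or less at 67 of 90 (74.4%, against 79.8% of all) and by more at 23. Only overlapping regions enter this measure. The largest shift, 694 bp, was that of the region before the third SQSTM1 start.

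Regions of 1 library were mostly weak. The 28 lactate-only regions had a median of 15.5 tags, against 11 over all lactate-only regions, and 9 had 20 or more (15% of all). After the SQSTM1 pair the tallest lay upstream of ATG5 within CRYBG1 (chr6:106364677-106364896). This narrow region had 40 tags, against 10 computed as needed for listing in the untreated library. Within ULK1 there were regions of 30 and 23 tags, and beyond the far end of TFEB one of 26 (chr6:41683632-41683894). The tallest elsewhere had 21 tags at ATG16L1, 18 at MAP1LC3B, 17 at ATG7 (narrow), 13 at BECN1 and 8 at GABARAPL1. The 9 untreated-only regions had 7 to 14 tags with a median of 9, against 11 over all untreated-only regions, and the tallest had 14 at ULK1, 13 at ATG5, 11 at GABARAPL1 and 9 at ATG7.

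Other genes of the pathway were taken from a list of 61, of which 49 had a listed start. Those without one included RB1CC1, UVRAG, ATG4D, MAP1LC3A, BNIP3L, RRAGD, LAMP2, CTSB, HEXA and ATP6V1H. A start region was found in both libraries at 47, in the lactate library alone at the lysosomal channel gene MCOLN1 (10 tags) and in neither at TFEC. The median ratio of the 47 was 1.79 beside 1.85 for all genes. Ratios were above 1 at 45 (97% of all genes) and 2 or more at 13, 27.7% against 39.3%. Against gene starts of like tags 6 stood 1.5 or more (8.49%) and 6 stood 1/1.5 or less (7.89%).

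Of the ULK1 complex, 3 genes were measured, from ATG13 (30 and 43 tags, ratio 1.70, 1.04 to 2.80) to ULK2, the ULK1 paralog (10 and 28 tags, ratio 3.32, 1.56 to 7.66). The 6 PI3-kinase genes beside BECN1 ran from the regulatory subunit gene PIK3R4 (61 and 64 tags, ratio 1.24, 0.862 to 1.80) to RUBCN, which restrains the complex (60 and 153 tags, ratio 3.02, 2.23 to 4.14). Genes at the ends of each range were picked for their ratios, so their difference is a description. The 7 conjugation and processing genes ran from ATG16L2 (78 and 84 tags, ratio 1.28, 0.926 to 1.76) to ATG10, the E2-like enzyme for ATG12 (23 and 59 tags, ratio 3.04, 1.85 to 5.16). The 3 ATG8 genes ran from GABARAP (33 and 34 tags, ratio 1.22, 0.734 to 2.03) to MAP1LC3C (28 and 83 tags, ratio 3.51, 2.26 to 5.60).

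The 5 membrane supply genes ran from the lipid transfer gene ATG2B (11 and 14 tags, ratio 1.51, 0.636 to 3.67) to its paralog ATG2A (154 and 313 tags, ratio 2.41, 1.98 to 2.94). The 6 other cargo receptor genes ran from OPTN (22 and 20 tags, ratio 1.08, 0.558 to 2.07) to the mitophagy receptor gene BNIP3 (19 and 62 tags, ratio 3.87, 2.28 to 6.85). Of the relatives of TFEB, TFE3 had 53 and 86 tags, ratio 1.92, 1.35 to 2.76. MITF had 10 and 53 tags, ratio 6.28, 3.16 to 13.8, but its tallest untreated and lactate regions do not overlap, so that ratio compares different sites. The 9 nutrient control genes ran from the mTORC1 subunit gene RPTOR (19 and 11 tags, ratio 0.686, 0.295 to 1.52) to MTOR (46 and 116 tags, ratio 2.99, 2.11 to 4.30). FLCN (28 and 23 tags, ratio 0.973, 0.536 to 1.75), named after its value was seen, was the other gene below 1. The 6 lysosomal genes in both libraries ran from the protease gene CTSD (37 and 46 tags, ratio 1.47, 0.935 to 2.34) to CTSL, another protease gene (35 and 72 tags, ratio 2.44, 1.61 to 3.76).

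**Figure D4:**
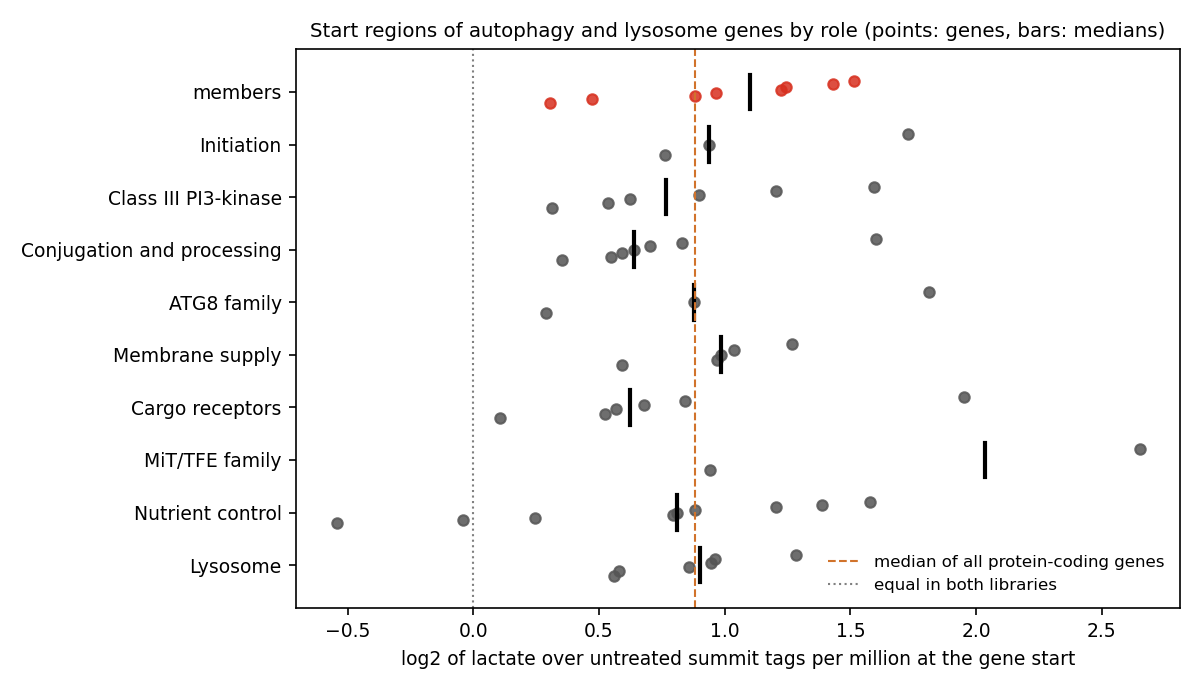
Log2 of the lactate to untreated ratio at gene starts (horizontal) for 8 of the 9 autophagy genes in red and for other pathway genes by role in grey, with black bars at the medians, a dashed line at the median of all protein-coding genes (a ratio of 1.85) and a dotted line at equal levels. The red points run from ATG7 at 1.23 to ATG5 at 2.86, and RPTOR and FLCN lie left of the dotted line.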

How the data were processed

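The data are ATAC-seq peak lists of 1 untreated and 1 lactate CAL27 library. The submitters' processing notes list MACS2 2.1.0, BWA 0.7.12, fastp 0.20.0 and hg38, without roles, while the file headers give MACS 2.2.7.1. Each library was called by the authors on its own without a control, at a q-value threshold of 0.05, with an extension of 200 bp and remaining duplicates kept, per the file headers. The deposited pileup is a signal, the unscaled number of extended tags over a summit. The deposited fold enrichment is a ratio of pileup to local background. Positions were deposited in base pairs.

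The members and gene lists were chosen with earlier results of these data known. Chromosomes 1 to 22 and X were used, a region took its highest summit, and regions overlapping by at least 1 bp were merged. Ratio intervals are exact conditional Poisson and share intervals exact binomial. PCR copies are not independent molecules. Tags needed for listing were computed from the lowest recomputed −log10 Poisson p of a deposited list and the background of its nearest region, and a like background is one within 10%. Starts came from the RefSeq promoter table (15812 of 19974 protein-coding genes), and the tallest region within 1 kb of any listed start was taken in each library. Markers used either gene end. Exons and introns were not told apart. All 9 genes are named, with each window's tallest region, the highest and lowest ratio among regions of 20 or more tags in both libraries summed, and the tallest of 1 library. Regions with a relative interval off 1 and neighbouring gene starts were added after their values were seen. Per role of the pathway list the lowest and highest genes and those of 1 list are named. Merging and intervals were tested on simulated lists, with Python 3.11.15 and scipy 1.17.1. No test across libraries was made. Some genes of the lists are not reported here by name.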

Additional observations from a re-analysis of the deposited data

How the results depend on the processing

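No paired analysis was possible because there is only a single library of each kind. Of 65 alternative values for the windows and lists, 49 stayed close to those reported, 16 moved and 0 reversed. Of 80 alternative start ratios of single members, 65 stayed close, 13 moved and 2 reversed. Divided by the median ratio of all shared regions, the median ratio was 1.10 for the member regions, 1.30 for member starts and 1.09 for the pathway list, and 3 of 90 member regions had a ratio of 2 or more (2.29% of all). Divided by the summed summit pileup, these were 1.04, 1.23, 1.02 and 1 (1.498% of all). Undivided, the median was 1.85 over all gene starts and 1.65 over all shared regions. On the first of these scales 1 therefore lies below the background of gene starts. Under these scalings the start ratios of SQSTM1 (0.841 and 0.793) and ATG7 (0.749 and 0.705) turned below 1. With the mean over a region's summits the median ratio of the member regions was 1.65, beside 1.62 over all shared regions. Windows of 10 kb and 100 kb hold fewer and more regions, and gave 15 of 44 and 48 of 135 shared regions with a ratio of 2 or more (29.3% of all). With lists of equal length 15 of 114 regions were found in the lactate list alone and 13 in the untreated list alone. Lactate-only regions numbered 15 of 65 with a window of 10 kb and 18 of 83 with one of 25 kb (26% of all regions). Untreated-only regions numbered 2 of 102 where the recomputed −log10 p had to reach 7, and 1 of 100 at a summit pileup of at least 15. With a start window of 2 kb all 9 genes had a start region in both libraries. For equal lists, these 2 limits and the 2 kb start window, the shares of all regions or genes in 1 or both lists were not computed. For these counts, whether the members moved apart from the whole lists is therefore not known. With equal lists the median ratio of the member regions was 1.82, beside 1.71 over all shared regions. It was 1.82 beside 1.67 at the −log10 p limit, and 1.82 beside 1.70 at the pileup limit. With narrow regions left out of both lists, the median ratio of the member regions was 1.81, beside 1.68 over all shared regions. Low summit tags limit single ratios, and the interval excludes 1 at 49 of the 90 shared regions.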
